A study of Mus musculus with 6 samples.

Results

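The GPCR kinases (GRKs) and beta-arrestins, which switch off activated G protein-coupled receptors (GPCRs), were examined in whole hearts of embryonic mice. With the beta-adrenergic receptor genes Adrb1 and Adrb3 the members were the 9 genes Grk2, Grk3, Grk4, Grk5, Grk6, Arrb1, Arrb2, Adrb1 and Adrb3, and a probe set counted when the platform annotation gave it exactly 1 symbol and that symbol was a member. By this rule 6 of the 9 genes were measured, by 13 of the 45101 probe sets on the array, and Grk2, Adrb1 and Adrb3 were not analysed here. The older names Adrbk1 and Adrbk2 were accepted for Grk2 and Grk3. The members were chosen by name. The main probe set of each gene was selected on its mean log2 intensity over all 6 arrays, which takes no account of genotype: the brightest probe set stands for the gene, and the others are given beside it. The set was put together with the fall of Grk3 already known, so that fall is described here and supports nothing else.

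The hearts came from embryos at embryonic day 16.5. The groups were 3 wild-type and 3 FOG-2R3K5A siblings (called mutants from here on), from double heterozygous parents. Both groups share a background labelled mixed C57/B6, 129 S6. FOG-2, encoded by Zfpm2, works as a partner of GATA transcription factors, and the R3K5A substitutions are known to abolish the contact with NuRD, a complex that remodels chromatin. Whether mutants were homozygous, and whether a sample was a single heart, is not in the labels. The p-values set the genotype difference against the spread of these 6 samples within their genotypes, whatever each sample held.

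GRKs phosphorylate receptors that are occupied by a ligand. Arrestins then bind the phosphorylated receptor, uncouple it from its G protein and pass it to clathrin-coated pits, a sequence known as desensitisation and internalisation. GRK2 and GRK3 form a subfamily that is brought to the membrane by the beta-gamma subunits of G proteins, while GRK4, GRK5 and GRK6 form another that stays at the membrane by other means. In the heart this machinery is best known for limiting the response of beta-adrenergic receptors to catecholamines.

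Array medians ran from 77.4 to 84.1 intensity units, and the arrays correlated at 0.972 to 0.995 with each other over the tested genes. Of the 7 cardiomyocyte markers, 7 lay above the filter level. Wild-type replicate 1 stood apart: leaving it out raised the number of called genes from 196 to 451. The summed intensity of 5 erythroid markers was 7457 on this array and 1925 to 3897 on the others. That sum follows the globin gene Hbb-y, at 12.59 log2 units on this array and 9.33 to 11.37 on the others. Alas2 stood at 9.85 on this array against 9.84 to 10.48, and Slc4a1 at 8.28 against 7.15 to 8.26. The summed intensity of 7 lung and airway markers was 241 to 383 in wild type and 735, 245 and 3558 in mutant replicates 1, 2 and 3. These high sums follow mainly the secretoglobin Scgb3a2.

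Among the 5 members bright enough to be tested, 2 changed between the genotypes, and they moved in opposite directions: Grk3 was lower and Grk5 higher in mutant hearts. Of all 11113 genes tested, 1.76% were called at an adjusted p under 0.05, 1.39% higher and 0.369% lower in mutants. Grk6, Arrb1 and Arrb2 were not called, and Grk4 lay under the filter level of 6.30 log2 units (an intensity of 78.9, the median of all probe set means). Because whole hearts were measured, fewer cells of a type and less RNA per cell cannot be told apart.

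Grk3, the kinase closest to GRK2, had an intensity of 604.16, 796.75 and 812.61 in wild-type replicates 1, 2 and 3 and of 451.22, 402.08 and 426.33 in mutants. All mutants lay below all wild-type hearts, and wild-type replicate 1 was the wild-type heart nearest to them. On the log2 scale the means were 9.51 ± 0.24 (SD, n = 3) in wild-type and 8.73 ± 0.08 in mutant hearts. The difference, mutant minus wild type, was -0.78 (SE 0.12), a 1.72-fold lower intensity, with an adjusted p of 0.0188 by limma over all genes tested. The other two Grk3 probe sets were also lower in mutants with no overlap. In the first of them the intensity was 250.58, 372.82 and 322.4 in wild type and 206.27, 166.57 and 226.27 in mutants, a log2 difference of -0.65 (SE 0.17). In the second it was 126.28, 211.53 and 197.2 in wild type and 117.93, 112.23 and 119.95 in mutants, a log2 difference of -0.58 (SE 0.19). In each, wild-type replicate 1 lay close to the mutants. Neither of these was called in the fit over all 22518 probe sets above the filter (adjusted p = 0.132 and 0.223 by limma), in which the first Grk3 probe set was (adjusted p = 0.0284) and 0.99% of probe sets were called. The Grk3 call was lost when any of the arrays other than wild-type replicate 1 was left out (adjusted p = 0.0543 to 0.0823 by limma), with no filter (0.0564) and with the mean over the 3 probe sets (0.0827), while the difference stayed between -0.92 and -0.67 in all 16 alternatives.

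Grk5, which phosphorylates receptors at the plasma membrane and is also known as a nuclear kinase of class IIa histone deacetylases in cardiomyocytes, was higher in mutants. Its intensity was 539.82, 474.06 and 425.98 in wild-type replicates 1, 2 and 3 and 848.98, 820.49 and 753.18 in mutants. The lowest mutant heart lay well above the highest wild-type heart, again replicate 1. The log2 means were 8.90 ± 0.17 (SD, n = 3) in wild-type and 9.66 ± 0.09 in mutant hearts. The difference was 0.76 (SE 0.10), a 1.69-fold higher intensity (adjusted p = 0.0108 by limma over all genes). The other Grk5 probe set gave a difference of the same size. It had an intensity of 163.5, 144.95 and 141.03 in wild type and 270.84, 267.06 and 222.67 in mutants, a log2 difference of 0.76 (SE 0.12), and was called in the fit over all probe sets as well (adjusted p = 0.0285 by limma; 0.0169 for the main probe set in that fit). In the fit over all genes 15 of 16 alternatives kept the Grk5 call, with differences of 0.67 to 0.84. Without mutant replicate 1 the adjusted p was 0.0735 by limma. In the fit over all probe sets the calls were less stable. With no filter neither Grk5 probe set was called there (adjusted p = 0.0628 and 0.0854 by limma). Nor was either called without wild-type replicate 3 or without any single mutant. Without wild-type replicate 2 only the main probe set was called.

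**Figure D1:**
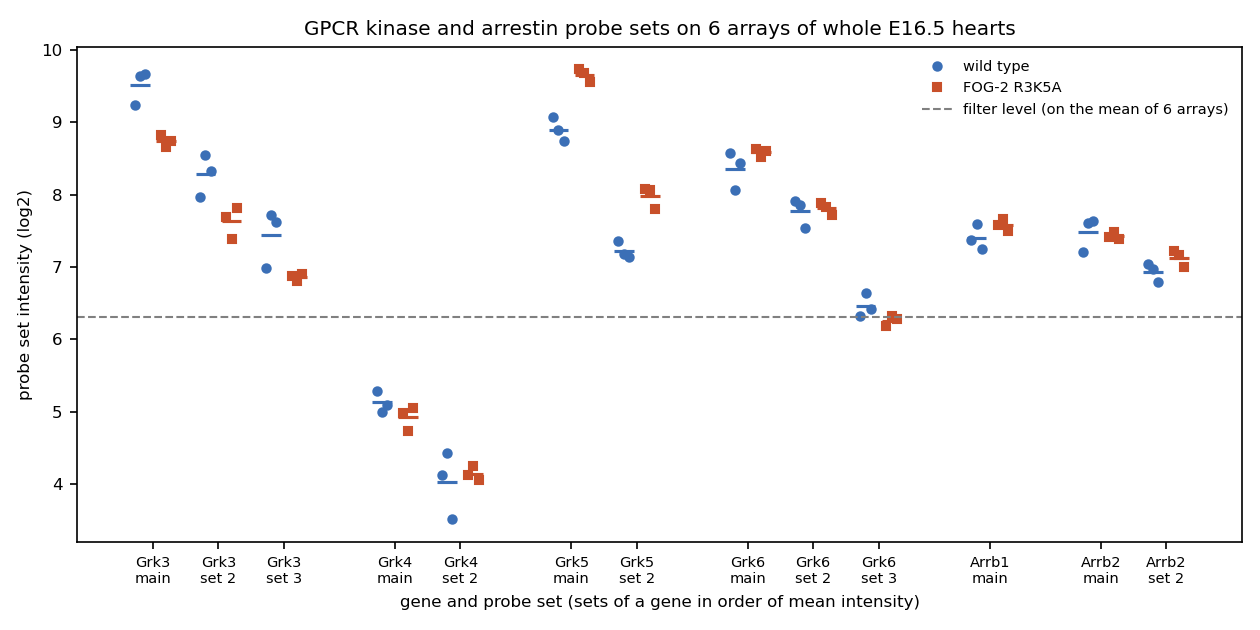
Log2 intensity of each of the 13 probe sets in 3 wild-type (circles) and 3 mutant (squares) hearts, with bars at the genotype means and a dashed line at the filter level of 6.30. The 3 Grk3 probe sets are lower and both Grk5 probe sets higher in every mutant than in every wild-type heart, and both Grk4 probe sets lie under the line in all hearts.

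Grk5 and Grk6 belong to the same GRK subfamily, and their promoter windows are shown because FOG-2 acts through GATA factors and Grk5 was called while Grk6 was not. The windows are from RefSeq, build GRCm38.p6, and run from 250 bases before to 50 after a start site on the plus strand. They lie at chr19:60889499-60889798 for Grk5, and at chr13:55444822-55445121 and chr13:55445079-55445378 for 2 start sites of Grk6. A further Grk6 window that begins 2 bases after the last is not printed. Capitals mark GATA sites (AGATAA or AGATAG or TGATAA or TGATAG, on either strand) and GC boxes (GGGCGG on either strand).
Grk5: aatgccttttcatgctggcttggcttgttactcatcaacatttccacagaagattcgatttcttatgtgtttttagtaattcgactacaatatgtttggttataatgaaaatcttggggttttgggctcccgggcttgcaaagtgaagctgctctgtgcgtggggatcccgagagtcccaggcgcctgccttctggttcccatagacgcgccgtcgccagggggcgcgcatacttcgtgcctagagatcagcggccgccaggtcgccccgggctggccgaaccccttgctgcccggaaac
Grk6, upstream start site: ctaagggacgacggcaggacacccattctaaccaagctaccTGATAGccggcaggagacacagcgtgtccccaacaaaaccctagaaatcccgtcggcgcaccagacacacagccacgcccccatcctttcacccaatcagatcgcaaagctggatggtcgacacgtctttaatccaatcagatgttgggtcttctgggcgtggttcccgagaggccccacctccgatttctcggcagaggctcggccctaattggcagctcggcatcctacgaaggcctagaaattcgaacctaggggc
Grk6, downstream start site: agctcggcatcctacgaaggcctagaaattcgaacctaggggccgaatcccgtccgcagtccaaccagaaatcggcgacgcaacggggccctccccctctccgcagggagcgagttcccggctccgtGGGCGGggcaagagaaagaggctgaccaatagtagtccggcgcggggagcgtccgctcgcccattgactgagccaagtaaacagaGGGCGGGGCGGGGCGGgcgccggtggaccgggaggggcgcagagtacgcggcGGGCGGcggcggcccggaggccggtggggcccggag
The Grk5 window held 0 of these GATA sites and 0 GC boxes, and also no TGACG (the core of the element bound by CREB, the transcription factor activated by cAMP) and no TATAAA on either strand. The upstream Grk6 window held 1 GATA site, TGATAG, which begins at -209 from the start site, and the downstream window held 5 GC boxes, of which 3 follow one another with shared bases. Of all 32851 windows of this length, 29.8% held a GATA site of these spellings, 35.7% a GC box, 20.8% a TGACG and 13.6% a TATAAA. A window without these letters says nothing about sites elsewhere at the gene.

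Grk6, the other broadly expressed kinase of the GRK5 subfamily, did not change beyond the spread of the hearts. Its main probe set had an intensity of 380.11, 268.76 and 346.29 in wild type and 395.97, 367.99 and 388.81 in mutants. The genotypes overlapped, and wild-type replicate 2 was the lowest heart. The log2 difference was 0.23 (95% interval -0.07 to 0.52, adjusted p = 0.454 by limma over all genes). Its other probe sets gave 0.04 (interval -0.24 to 0.32) and -0.20 (interval -0.51 to 0.11). In the last of these, near the filter level, the 3 mutants were lower than the 3 wild-type hearts, at 72.83 to 79.65 against 80.11 to 99.47 intensity units, while the main probe set pointed the other way. That last probe set passed the filter only through the wild-type hearts, with 3 of them and 1 mutant above the level.

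Grk4, best known from testis and kidney, was dim in all hearts. Its main probe set read 38.92, 32.01 and 34.26 in wild type and 31.54, 26.71 and 33.24 in mutants. The other read 11.42 to 21.63 and 16.66 to 18.94. Both lay under the filter level on 6 of 6 arrays, so no fold is given.

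The 2 beta-arrestins were not called. Arrb1, which encodes beta-arrestin 1, had an intensity of 165.51, 193.85 and 152.01 in wild type and 191.99, 201.96 and 180.84 in mutants. The genotypes overlapped, with a log2 difference of 0.17 (95% interval -0.11 to 0.45, adjusted p = 0.544 by limma over all genes). Arrb2, which encodes beta-arrestin 2, had an intensity of 148.34, 194.55 and 199.34 in wild type and 169.84, 178.44 and 167.79 in mutants. Here wild-type replicate 1 was the lowest heart and the other wild-type hearts the highest. The log2 difference was -0.06 (interval -0.37 to 0.25, adjusted p = 0.870 by limma over all genes). The other Arrb2 probe set had a difference of 0.20 (interval -0.09 to 0.48) with overlapping genotypes. The intervals reach 0.45 for Arrb1, and -0.37 (main probe set) and 0.48 (other probe set) for Arrb2. Arrestin changes up to those sizes are not set aside by these 6 arrays.

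**Figure D2:**
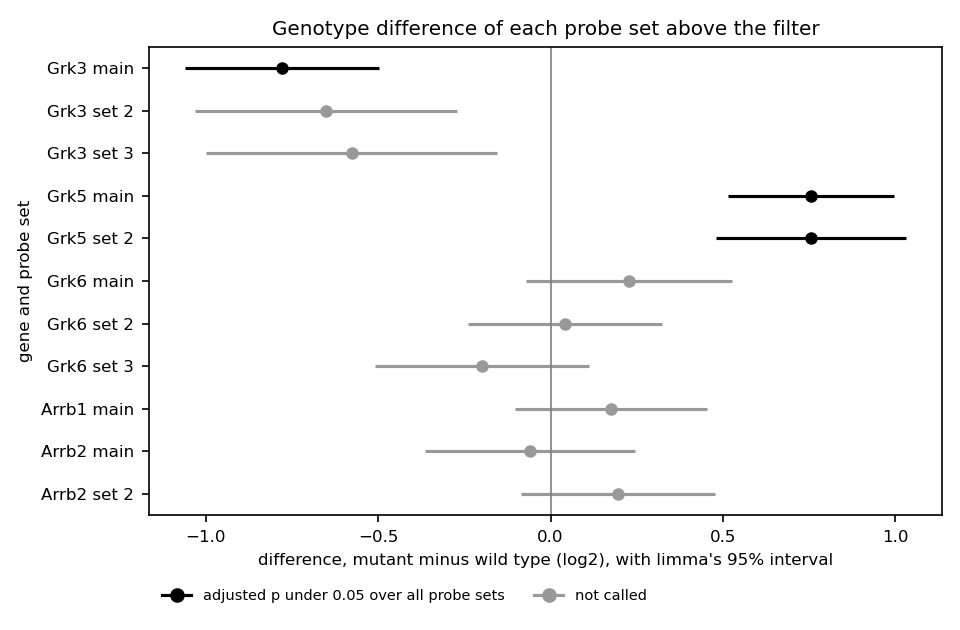
Log2 difference, mutant minus wild type, of the 11 member probe sets above the filter, with limma's 95% interval. Black points have an adjusted p under 0.05 over all 22518 probe sets (1 of Grk3 and 2 of Grk5), and grey points do not. The intervals of all 3 Grk3 probe sets lie below 0.

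Of the 11 member probe sets above the filter, 6 had genotypes that did not overlap, 4 lower (3 of Grk3 and 1 of Grk6) and 2 higher (both of Grk5). The Grk6 probe set passed the filter only through the wild-type hearts, so its place in this count is a description and supports nothing else. Among all probe sets above the filter 20.3% had genotypes that did not overlap. Probe sets of a gene share its transcript and are not independent. Grk3 ranked 72 and Grk5 45 of the 11113 genes by p. The 2 genes were opposed between the genotypes and among the wild-type hearts, but not among the mutants, where replicate 1 was the highest for both. Relative to its own mean over the 6 arrays, Grk3 stood at 0.11, 0.51 and 0.54 log2 units in wild-type replicates 1, 2 and 3 and at -0.31, -0.47 and -0.39 in mutants, and Grk5 at -0.20, -0.39 and -0.54 and at 0.45, 0.40 and 0.28. In both genes wild-type replicate 1 was the wild-type heart nearest to the mutants. Without it the differences were -0.92 for Grk3 and 0.84 for Grk5, both called (adjusted p = 0.00453 and 0.00691 by limma).

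**Figure D3:**
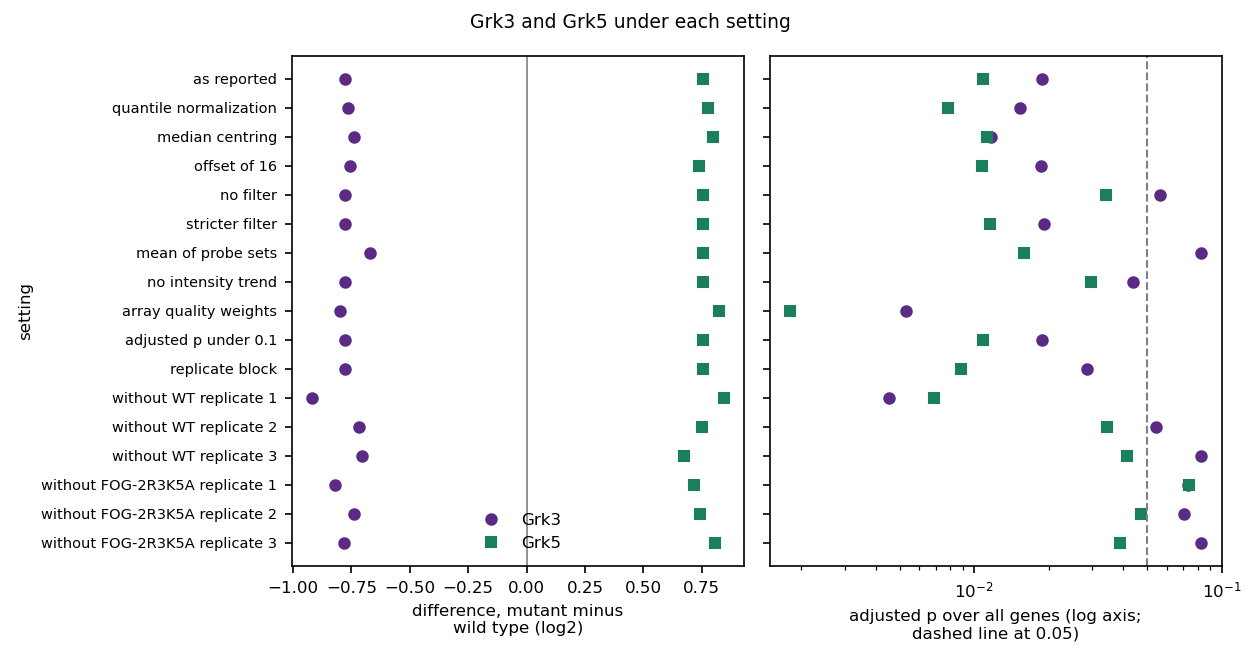
Log2 difference, mutant minus wild type (left), and adjusted p over all genes on a log axis (right) of Grk3 (circles) and Grk5 (squares), as reported and under 16 alternatives. The differences keep their sign throughout; Grk3 lies beyond the dashed line at 0.05 in 7 alternatives and Grk5 in 1.

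Some cell type markers differed between the genotypes on the same arrays. The summed intensity of the 8 epicardial markers, of which 8 lay above the filter and 5 were called higher, was 4169 to 4327 in wild type and 5910 to 6489 in mutants. The called markers were the keratins Krt8, Krt18 and Krt19 and the surface genes Msln and Upk3b, while the transcription factors Wt1 and Tbx18 had log2 differences of -0.06 and -0.11 with overlapping genotypes. The 5 neuron and glia markers measured, of which 2 lay above the filter, summed to 754 to 845 in wild type and 966 to 1115 in mutants, with Tubb3 at the floor of the scale on 4 of 6 arrays. Of the 2 above the filter, Uchl1 had a log2 difference of 0.61 and was not called (adjusted p = 0.0619 by limma), and Sox10 had -0.08 with overlapping genotypes, so that sum follows Uchl1. The 7 cardiomyocyte markers summed to 61217 to 64065 in wild type and 64189 to 65500 in mutants, a separation without overlap but a small one. The part of these markers in the Grk3 and Grk5 differences was not tested. Endothelial, smooth muscle, fibroblast, leukocyte, platelet, sympathetic, fat, skeletal muscle and thymus markers had summed intensities that overlapped between the genotypes, though 2 of 8 skeletal muscle markers were called lower. The lung and airway sum was high in mutant replicates 1 and 3, and its part was not tested either. In mutant replicate 1 that sum follows Scgb3a2, at 9.03 log2 units against 4.81 to 5.40 in wild type. In mutant replicate 3 it follows Scgb3a2 (11.36) and Sftpc (9.43). Sftpb, also above the filter, had a log2 difference of -0.14 with overlapping genotypes.

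Across the rest of the pathway, 98 of 128 listed genes were tested and 5 were called, 2 higher and 3 lower, or 5.1% against 1.76% of all genes. The called genes were Aplnr, Rgs2, Rgs6, Kcne1 and Ppp1r1b, of which Rgs6 passed the filter only through the mutants. The changes of Aplnr, Kcne1 and Ppp1r1b were known when the lists were drawn up, so the share is a description. The genotypes did not overlap for 25 of the 98 genes (25.5%, against 21.2% of all genes). The median difference of all tested genes was -0.01 log2 units.

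Among 13 other tested receptors of the heart, on which GRKs and arrestins can act, 0 were called higher and 1 lower by limma, and 8 had an unadjusted p under 0.05, as did 14.7% of all genes. The median difference was 0.05. Aplnr, the apelin receptor, had log2 intensities of 10.91, 10.97 and 11.14 in wild type and 10.16, 9.91 and 10.32 in mutants, well apart. It fell by 0.88 on the log2 scale (1.84-fold, adjusted p = 0.00655 by limma), and was called in 16 of 16 alternatives. The lysophosphatidic acid receptor Lpar4 had a difference of -0.39 (adjusted p = 0.0516 by limma), from 10.02 ± 0.03 (SD, n = 3) in wild type. Its other probe sets had -0.11 and -0.26, both with overlapping genotypes. Ackr3, an atypical chemokine receptor that signals through arrestins, had 0.53 (adjusted p = 0.0605), with 9.69 to 10.18 in wild type and 10.40 to 10.48 in mutants. In Ackr3 and the main Lpar4 probe set the genotypes did not overlap, and neither gene was called.

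RGS proteins end the signal of G proteins by speeding their hydrolysis of GTP. Of 11 tested, 1 was called higher and 1 lower, with a median difference of -0.11. Rgs6, which acts on inhibitory G proteins and is known in the heart for limiting the muscarinic slowing of the beat, had log2 intensities of 6.22, 5.98 and 6.16 in wild type, under the filter level, and 7.12, 7.12 and 7.27 in mutants. Counted from that level it was at least 1.82-fold higher. Its mean over the 6 arrays passed the filter only through the mutants. The adjusted p of 0.00752 by limma and the call therefore describe these values and support nothing else. The other Rgs6 probe set lay under the filter in mean and was not tested. Of the 14 alternatives that tested the gene 13 kept the call. Without mutant replicate 3 the adjusted p was 0.0528. Rgs2, which acts mainly on Gq, had 10.10, 10.10 and 10.15 in wild type and 9.49, 9.73 and 9.79 in mutants. It fell by 0.45 (adjusted p = 0.0476 by limma), with other probe sets above the filter at -0.37 and -0.30. Its call held in 5 of 16 alternatives and was lost when any single array was left out (adjusted p = 0.0571 to 0.204). Rgs9 had -0.31 (adjusted p = 0.430).

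Of 12 genes listed around the beta-adrenergic response of cardiomyocytes, mostly targets of protein kinase A, 1 was called higher and 1 lower by limma. Whole hearts were measured, so which cells held these transcripts was not tested. In this list 5 of the 12 had an unadjusted p under 0.05, as did 14.7% of all genes, and the median difference was -0.07. Ppp1r1b, an inhibitor of protein phosphatase 1 that protein kinase A switches on, had log2 intensities of 8.15, 8.80 and 8.24 in wild type and 6.89, 6.95 and 6.88 in mutants. It fell by 1.49 (2.81-fold, adjusted p = 0.00435 by limma), and the call held in 16 of 16 alternatives. Kcne1, a subunit of the slow delayed rectifier potassium channel, whose current protein kinase A raises, had 10.48, 10.97 and 10.68 in wild type and 11.61, 11.48 and 11.36 in mutants. It rose by 0.77 (adjusted p = 0.0159 by limma), its other probe set had 0.66, and 11 of 16 alternatives kept the call. Among single arrays, the call was lost without wild-type replicate 3 (adjusted p = 0.0764) and without mutant replicate 1 (0.0847) or 3 (0.0528). Cacna1c, the pore of the L-type calcium channel, had -0.53 and -0.55 in its 2 probe sets, with genotypes that did not overlap in either, and was not called (adjusted p = 0.0723).

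The G proteins and the cAMP pathway between receptor and target held 0 called genes by limma. Of 17 tested G protein subunits 1 had an unadjusted p under 0.05, against 14.7% of all genes. The differences ran from -0.23 to 0.13 with a median of -0.05. Gnas, the stimulatory alpha subunit, had 0.03. Gng2, a gamma subunit, had -0.23 (adjusted p = 0.283), Gna12 -0.22 and Gnb5 -0.12. The other Gnb5 probe set had 0.13, while the other Gng2 and Gna12 probe sets above the filter were also lower in mutants. Of 27 genes of cAMP and protein kinase A, 7 had an unadjusted p under 0.05 (14.7% of all genes did), and the median was -0.04. Akap6 and Akap5, which anchor protein kinase A in cardiomyocytes and at the plasma membrane, had -0.37 and -0.46, and the adenylyl cyclase Adcy7 had 0.48, each with genotypes that did not overlap (adjusted p = 0.146, 0.161 and 0.169). The other Akap5 probe set above the filter had -0.23 with overlapping genotypes. The catalytic subunits Prkaca and Prkacb had 0.07 and -0.07. Of 18 genes of receptor endocytosis and arrestin partners, 0 were called by limma and 2 had an unadjusted p under 0.05 (14.7% of all genes did). These were Txnip at 0.16 and the clathrin adaptor subunit Ap2a2 at -0.22. The other Txnip probe set had 0.06, and the other Ap2a2 probe sets above the filter 0.10, -0.03 and -0.08, all with overlapping genotypes. The median of the 18 genes was -0.08. The retinal paralogs Grk1, Sag and Arr3 lay under the filter in mean and were not tested.

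**Figure D4:**
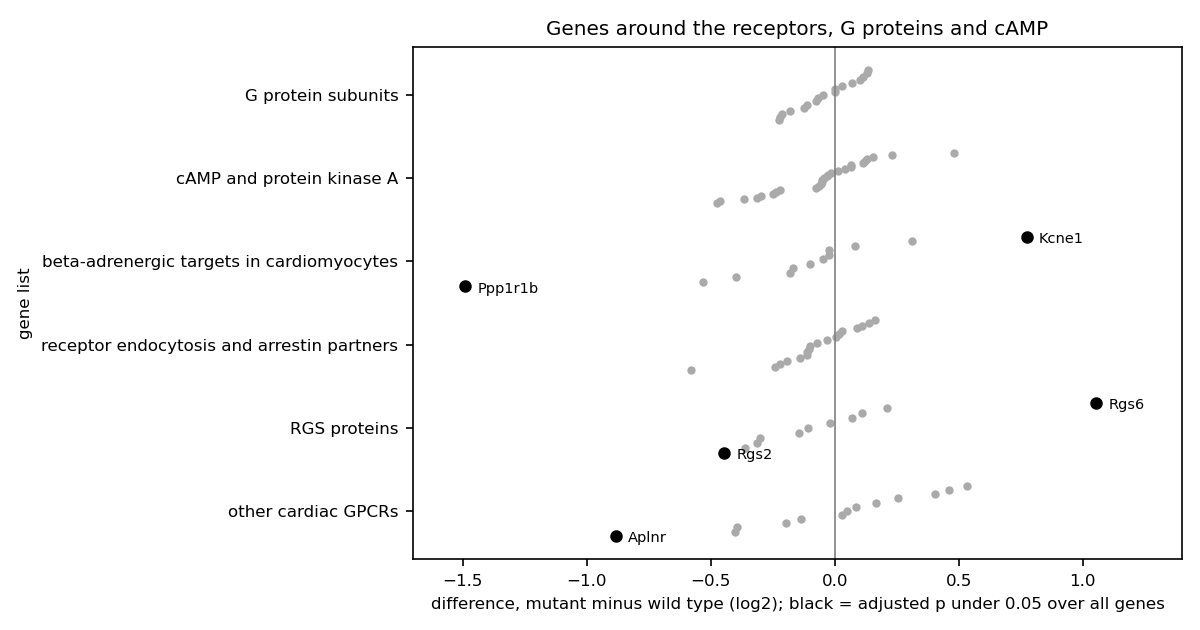
Log2 difference, mutant minus wild type, of the 98 tested pathway genes, 1 point a gene, in 6 lists. The 5 called genes are black and named: Aplnr, Rgs2 and Ppp1r1b lie below 0, Kcne1 and Rgs6 above it, and the points of the G protein list stay between -0.23 and 0.13.

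The genes whose levels followed Grk3 and Grk5 most closely over the 6 arrays were found by the root mean square difference between their deviations from their own means, in log2 units. Predicted genes and names ending in Rik were skipped, so the genes below are the nearest among the rest. Nearest to Grk3 were Gimap3 (0.10), Tmem138 (0.12), Tmem35a (0.12), Btn1a1 (0.12) and Plppr1 (0.13). Of these only Plppr1 was itself called (a fall of 0.74, adjusted p = 0.0359 by limma), and its other probe set above the filter had -0.87. Gimap3 and Btn1a1 had mutant means of 6.20 and 6.02, under the filter level, and passed it only through the wild-type hearts. The other Btn1a1 probe sets lay under the filter. Nearest to Grk5 were Scube2 (0.06), Atp8a1 (0.07), F11r (0.07), Tmem108 (0.07) and Timp1 (0.09), all 5 called higher, by 0.64 to 0.82. F11r encodes a tight junction adhesion molecule and Timp1 an inhibitor of metalloproteinases. Of the 4 other Atp8a1 probe sets above the filter 1 had the opposite sign (-0.06), the rest had 0.26 to 0.37, and none was called. The other Tmem108 probe sets had 0.57 with overlapping genotypes and 0.27, and neither was called. Closeness of this kind is set largely by the genotype difference itself, since the measure covers both genotypes.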

How the data were processed

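The authors' deposited table holds linear intensities, 1 value per probe set and array, from 1-colour Affymetrix arrays hybridised with biotin-labelled target from 3 µg of total RNA, per the labels' protocols. The values had been scaled between arrays (the method is not given in the sources used here). Array medians lay within 0.12 log2 units, so no further normalization was applied. Intensities were floored at 1 and log2-transformed. Control probe sets (64) were left out, and 34945 probe sets had 1 symbol, 932 several and 9160 none. Dim genes, with a mean at or below the median over probe sets other than controls, were removed (7080 of 18193). The comparison of genotypes used limma 3.58.1 under R 4.3.3 (lmFit, eBayes with an intensity trend, two-sided, Benjamini-Hochberg over all 11113 genes, called under 0.05); a second fit covered all 22518 probe sets above the filter. The gene-level fit, tested on simulated arrays of 11113 genes, called 72.6% of genes changed by 0.75 log2 units, and 3.9% of its calls were false. The number of arrays limits the precision. Members, lists and tests were chosen with earlier results of these data known. Named genes were all members, the called or otherwise the 3 smallest-p genes of each list, and the 5 nearest patterns per called member; Gnas, Prkaca, Prkacb, Agtr2 and Arrdc2 were added after their values were seen. Alternatives covered normalization, offset, filter, probe set summary, variance model, threshold, replicate block and each array left out. Figures were drawn with matplotlib 3.10.9.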

Additional observations from a re-analysis of the deposited data

How the results depend on the processing

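The number of members called was 2 of 5 as reported and 0 to 2 when an array was left out (0 without mutant replicate 1, where the unadjusted p was still under 0.05 for 2). It was 1 with no filter and 1 with each gene's probe sets averaged. Member probe sets called by limma numbered 3 as reported, 0 with no filter (5 with an unadjusted p under 0.05) and 0 to 5 when an array was left out (5 to 6 with an unadjusted p under 0.05). Pathway genes called numbered 5 as reported, 3 with no filter, 3 without the intensity trend, 9 with array quality weights, 10 at an adjusted p under 0.1, 8 with the replicate block and 2 to 9 when an array was left out. Over all genes 196 were called, against 81 with no filter, 125 with probe sets averaged, 119 without the trend, 429 with quality weights, 369 at an adjusted p under 0.1, and 37 to 451 when an array was left out (the lowest without mutant replicate 1, the highest without wild-type replicate 1). With the replicate number as a block 234 genes and 2 members were called. Same-numbered samples deviated together with correlations of -0.06, 0.13 and 0.41, and 2 of 6 arrays correlated best with their own number, so the numbers were not taken as pairs. The signs of Grk3, Grk5, Grk6 and Arrb1 held under all 16 alternatives, and that of Arrb2, never called, differed in 3.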

Other observations

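A few genes around these receptors lay under the filter level in mean and were not tested, and are given as values chosen after they were seen. Arrdc2, which encodes an arrestin domain protein, had log2 intensities of 6.50, 6.25 and 6.88 in wild-type replicates 1, 2 and 3 and 5.93, 6.14 and 5.14 in mutants, lower in all 3 mutants. Agtr2, the type 2 angiotensin receptor, had 3.91, 5.10 and 4.94 in wild type. In mutant replicates 1, 2 and 3 it had 6.998, 4.75 and 7.69, high in the same 2 hearts in which the lung secretoglobin Scgb3a2 was high, at 9.03, 4.87 and 11.36. Its genotypes overlapped.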
